A study of Mus musculus with 4 samples.

Results

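Untreated mouse colonoids were compared between 48 h and 72 h of culture. Colonoids are cultures of colonic epithelium in which stem cells keep dividing while their progeny become absorptive or secretory cells. The comparison used 2 of the 4 samples of the series, the untreated libraries labelled day 2 and day 3, and it took in all genes rather than a chosen set. The other samples had received 2 mM sodium butyrate for the same times. They entered the scaling of the counts and were otherwise used only to set their change beside the untreated change.

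The cultures came from the colon of a male mouse aged 24 weeks whose genotype is given as WT in the sample labels, whereas the study's methods describe colonoids of Hes1-GFP mice and crypts taken from the proximal colon. They were at passage 3. All 4 groups shared a medium with EGF (40 ng/ml), Noggin (200 ng/ml), R-spondin (500 ng/ml), the GSK3 inhibitor CHIR99021 (3 µM) and the ROCK inhibitor Y-27632 (10 µM). The medium thus supplied growth factor and Wnt signals and an inhibitor of BMP signals. Whether these stayed at the same strength up to 72 h was not measured. No fibroblasts, immune cells or nerves were added. RNA was selected by its poly-A tail and sequenced in bulk, and a lower count can therefore mean fewer cells of a type or less RNA per cell, which cannot be told apart.

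In the colonic crypt, Wnt signals at the base maintain *Lgr5*-positive stem cells. Their daughters choose a fate by Notch signalling: cells that receive it express *Hes1* and become absorptive colonocytes, and cells that escape it express *Atoh1* and become goblet, tuft or enteroendocrine cells. Enteroendocrine cells pass through a short stage marked by *Neurog3*. Colonocytes absorb salt, water and short-chain fatty acids, goblet cells secrete the mucus gel, and enteroendocrine cells release peptide hormones and serotonin.

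The untreated library held 21567500 counts at 48 h and 23578412 at 72 h, and the butyrate libraries held 24207840 and 20790225. There was 1 library per condition, so no difference could be set against replicate error and no p-value was computed. Except where raw counts are named, every level below is a normalised count, that is, the count divided by the DESeq2 size factor of its library. A change is the log2 ratio of 72 h over 48 h after adding 1 to each normalised count. Each change is followed by the bounds of its 95% Clopper-Pearson interval, which covers counting error only and treats reads as independent molecules, which PCR copies are not. Of 36144 gene names, 11511 had a mean normalised count of at least 50 in the untreated pair and were compared. "Rose" and "fell" are used for genes that changed at least 1.5-fold with an interval that left out 0.

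Most genes held their level between the time points. The median change was -0.0053, the SD across genes was 0.35, and 8536 genes (74.2%) differed by less than 1.2-fold. At least 2-fold higher at 72 h were 78 genes (0.678% of those tested), and 88 genes (0.764%) were at least 2-fold lower. At the 1.5-fold limit the counts were 333 (2.89%) and 360 (3.13%). Over all genes tested, 5634 had a change above 0 and 5877 below 0. These splits and shares are the background for the list counts below. The genes past 2-fold were mostly of low abundance, with a median normalised count of 132 among those higher and 123 among those lower, against 756 over all genes tested. Scaling to total counts instead of size factors moved the split at 2-fold to 59 higher and 111 lower, and at 1.5-fold to 242 and 476. Predicted gene models and pseudogenes made up 15 of the 78 and 18 of the 88.

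**Figure D1:**
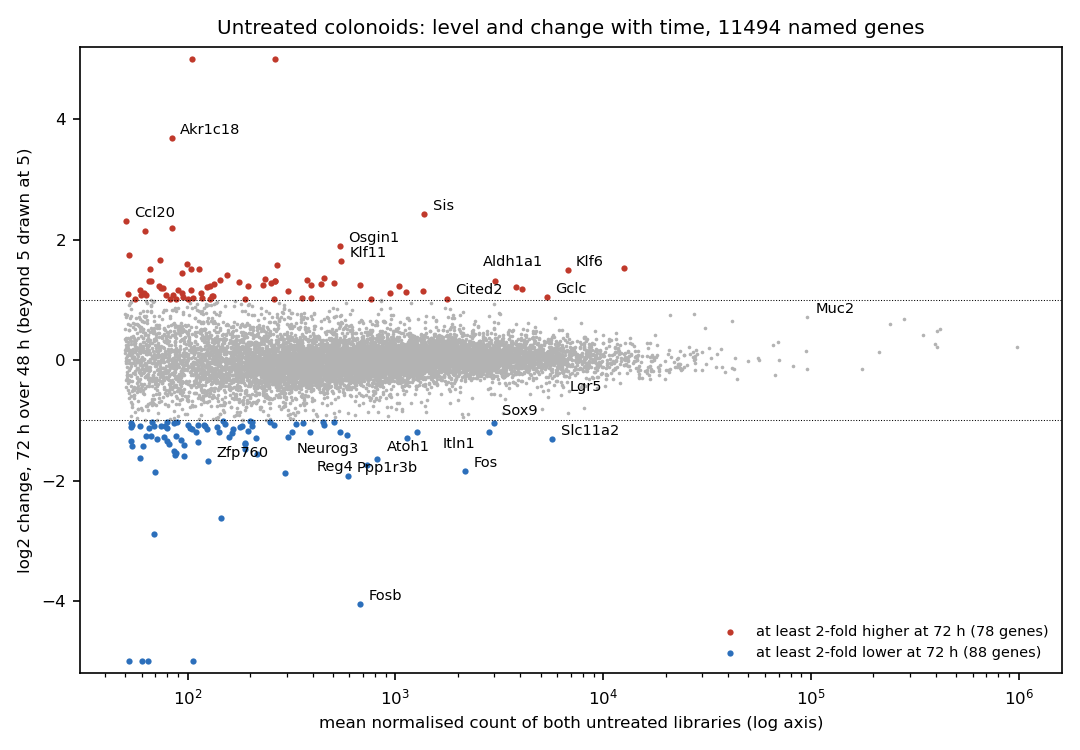
Log2 change from 48 h to 72 h in untreated colonoids against the mean normalised count of both libraries on a log axis, 1 point a gene, with values beyond 5 drawn at 5. The 78 genes at least 2-fold higher are red and the 88 at least 2-fold lower are blue. *Fosb*, *Fos*, *Atoh1* and *Slc11a2* lie below the band of unchanged genes, and *Sis*, *Klf6* and *Akr1c18* lie above it.

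Several factors that commit crypt cells to a secretory fate were lower at 72 h, while most products of mature goblet, enteroendocrine and absorptive cells were higher. *Atoh1*, the master regulator of secretory fate, had the largest fall among the secretory lineage factors tested.

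Of 19 secretory lineage transcription factors and ligands, 18 were tested, and 9 were at least 1.5-fold lower and none 1.5-fold higher, with a median change of -0.59. *Atoh1* (chromosome 6) fell from 1236 to 394, a change of -1.65 (-1.82 to -1.49). *Neurog3*, which starts the enteroendocrine programme, fell from 433 to 179, a change of -1.27 (-1.53 to -1.02). *Gfi1*, a repressor that favours goblet over enteroendocrine fate downstream of *Atoh1*, fell from 244 to 122 (-0.99, -1.32 to -0.68). Of these 3 regulators, *Atoh1* thus lost the most. The forkhead factors *Foxa2* (-0.78, -1.03 to -0.53) and *Foxa3* (-0.64, -0.79 to -0.50), both expressed in goblet and enteroendocrine cells, fell as well, whereas *Foxa1*, the third of these factors, had 4702 to 5104 (0.12, 0.061 to 0.18). *Bhlha15*, a factor of professional secretory cells, fell with a change of -0.63 (-0.90 to -0.36). *Spdef*, the goblet maturation factor, had 1401 to 1176 and a change of -0.25 (-0.37 to -0.14), short of the 1.5-fold limit. *Klf4*, expressed in goblet cells and upper-crypt colonocytes, was the member with the highest change, at 0.55 (0.49 to 0.61), and *Xbp1* and *Creb3l1*, which build the secretory apparatus, had changes of 0.065 (-0.0035 to 0.13) and 0.041 (-0.02 to 0.10). *Pou2f3*, the tuft cell factor, had 76 and 63 raw counts and an interval that included 0 (-0.32, -0.83 to 0.18).

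Genes of the Notch pathway fell among both ligands and targets, though not in every member. Of 23 genes, 14 were tested, 9 were below 0 and 5 above, 5 of them were at least 1.5-fold lower and none higher, and the median was -0.42. Among the ligands, which are displayed by secretory progenitors, *Dll1* fell from 305 to 123 (-1.3, -1.62 to -1.0) and *Dll4* from 551 to 289 (-0.93, -1.14 to -0.72). *Jag1* had a change of -0.51 (-0.70 to -0.31) and *Jag2* of 0.18 (-0.048 to 0.41). *Dll1* and *Dll4* also belong to the list of secretory factors. Among the receptors, *Notch1* had 2566 to 2047 (-0.33, -0.41 to -0.24) and *Notch2* had 449.9 to 506 (0.17, -0.018 to 0.36), both within 1.5-fold. Among the targets, *Hes1*, the repressor that blocks *Atoh1* in Notch-receiving cells, fell from 2843 to 1844, a change of -0.62 (-0.71 to -0.54). *Nrarp*, a feedback inhibitor induced by Notch, fell from 512 to 289 (-0.82, -1.04 to -0.61). The modifier *Lfng* fell (-0.60, -0.77 to -0.43). *Rbpj*, the DNA-binding partner of the cleaved receptor, had a change of -0.093 (-0.21 to 0.021). *Hes1* and *Atoh1*, which mark opposite fates, were thus both lower in the 72 h library.

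Stem cell and Wnt-responsive genes were lower as a group. Of 25 crypt stem cell genes tested, 18 had a change below 0, with a median of -0.26. At least 1.5-fold lower were 6 (24%, against 3.13% of all genes tested). *Lgr5*, the R-spondin receptor that marks the stem cells, had 7546 to 5044, a change of -0.58 (-0.63 to -0.53) that lay just inside the 1.5-fold limit. *Ascl2*, a Wnt-induced factor needed for stem cell identity, fell from 441 to 193 (-1.19, -1.45 to -0.95). *Sox9*, expressed in stem cells and secretory precursors, fell from 4012 to 1949 (-1.04, -1.12 to -0.96). *Rgmb*, *Ephb3* and *Cdca7* fell, with changes of -0.95 (-1.04 to -0.86), -0.71 (-0.81 to -0.61) and -0.66 (-0.75 to -0.57). Other accepted markers moved less: *Smoc2* had -0.36 (-0.43 to -0.29), *Rnf43* had -0.21 (-0.28 to -0.15), *Lrig1* and *Msi1* had -0.084 (-0.13 to -0.033) and 0.28 (-0.12 to 0.69), and *Ephb2* had 0.22 (0.16 to 0.27).

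The Wnt list, which shares members with it, had a median of -0.27 over 21 genes, of which 17 were below 0. *Myc*, a Wnt target that drives growth, fell from 2706 to 1463 (-0.89, -0.98 to -0.79), and *Sp5*, a feedback repressor, from 359 to 205 (-0.80, -1.06 to -0.55). *Axin2*, the classical feedback target, had 6045 to 4258 and a change of -0.51 (-0.56 to -0.45). *Tcf7l2*, the main nuclear effector of Wnt in the gut, was higher, at 0.50 (0.41 to 0.60). Of 18 Wnt ligands only 2 passed the count limit, and they moved apart. *Wnt3*, which the epithelium itself can supply to stem cells, fell from 244 to 113 (-1.11, -1.45 to -0.79). *Wnt5a* rose from 46.0 to 107 (1.2, 0.70 to 1.75). The BMP list had a median of 0.055, with *Id1* at -0.58 (-0.75 to -0.41) and *Bmp2* at 0.52 (0.31 to 0.73).

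Cell cycle genes moved little. DNA replication genes had a median of -0.11, with 44 of 56 below 0, and mitotic genes had a median of -0.09, with 43 of 57 below 0. The proliferation marker *Mki67* had 12058 to 12331 (0.032, -0.004 to 0.069). A single member of either list was past 1.5-fold, *Ccne2*, the cyclin that drives entry into S phase, which fell from 484 to 234 (-1.04, -1.28 to -0.82). The cell cycle inhibitors *Cdkn1c* and *Cdkn2b* rose, with changes of 1.02 (0.71 to 1.35) and 0.61 (0.48 to 0.73). *Cdkn1a* was higher at 0.38 (0.30 to 0.45).

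**Figure D2:**
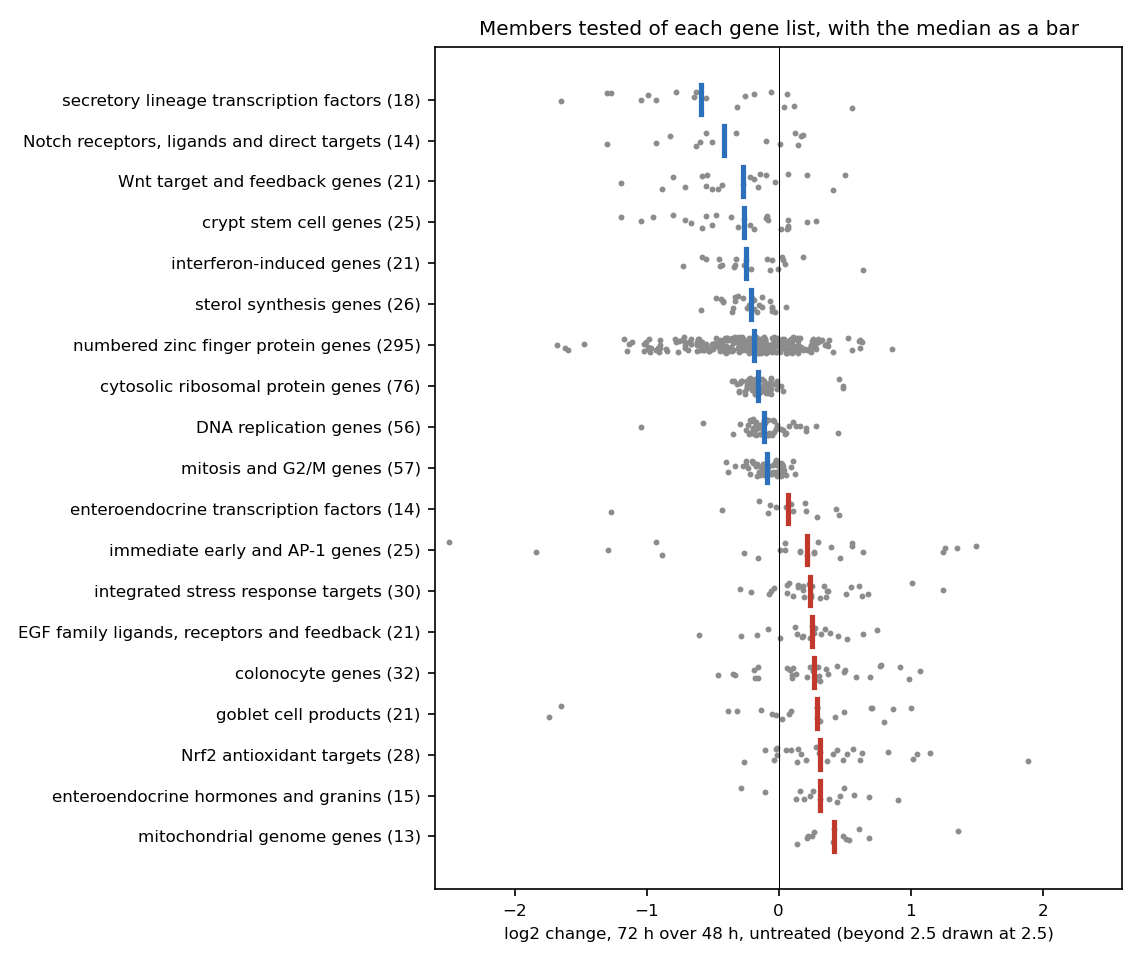
Log2 change from 48 h to 72 h of every tested member of 19 gene lists, 1 point a gene, with the median of each list as a bar, red above 0 and blue below, and the number of members in parentheses. Values beyond 2.5 are drawn at 2.5. Medians run from -0.59 for secretory lineage factors to 0.42 for the genes of the mitochondrial genome.

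Goblet cell products were mostly higher at 72 h. Of 21 tested genes, 14 were above 0 and 7 below, 5 were at least 1.5-fold higher and 2 lower, and the median was 0.29. *Muc2*, the gel-forming mucin of colonic mucus, rose from 73062 to 119430 (0.71, 0.70 to 0.72). That gain took it from 0.331% to 0.513% of all counts, the largest gain in share of any gene of the nuclear genome. *Retnlb*, an antibacterial goblet cell protein, rose from 572 to 1143 (1.0, 0.85 to 1.15). *Zg16*, a lectin that keeps bacteria off the epithelium, and *Clca1*, a mucus-processing protease, rose by 0.80 (0.71 to 0.89) and 0.70 (0.60 to 0.79). The trefoil peptide *Tff3* was higher, from 3602 to 4835 (0.42, 0.36 to 0.49). Both members that fell were *Atoh1*, described above, and *Reg4*, a lectin of deep crypt secretory cells, which went from 1126 to 336 (-1.74, -1.93 to -1.57). *Itln1*, an intelectin of goblet and Paneth-type cells, fell in parallel from 3918 to 1723 (-1.18, -1.27 to -1.1). *Spink4*, a goblet cell peptide, had -0.38 (-0.45 to -0.31), and *Agr2*, a disulphide isomerase needed for mucin folding, had 0.075 (0.042 to 0.11). The goblet median dropped to 0.19 when a mean count of at least 200 was required, just under the 0.2 from which a list median was called.

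Hormone genes were higher although *Neurog3* had fallen. Of 15 hormones and granins tested, 13 had a change above 0, and the median was 0.32. *Tph1*, the enzyme that makes serotonin in enterochromaffin cells, rose from 84.9 to 160.0 (0.91, 0.52 to 1.31), and *Nts*, encoding neurotensin, rose from 211 to 339.7 (0.69, 0.44 to 0.95). The 2 hormones of L cells moved less: *Gcg*, which encodes GLP-1, had 1340 to 1667 (0.32, 0.21 to 0.42), and *Pyy* had 336 to 376 with an interval that included 0 (0.16, -0.055 to 0.38). *Chgb*, a granin of the secretory granule, was higher from 4142 to 5387 (0.38, 0.32 to 0.44). Except for *Neurog3*, no enteroendocrine transcription factor of 14 tested was past 1.5-fold. *Neurod1* had -0.15 (-0.40 to 0.10), *Pax4* had -0.079 (-0.50 to 0.34) and *Pax6* had 0.20 (-0.32 to 0.73). Of the receptors for short-chain fatty acids, *Ffar2* fell from 142 to 90.8 (-0.64, -1.04 to -0.26), and *Ffar3* had 6 and 2 raw counts, below the limit for testing. Tuft cell genes had a median of -0.026 over 11 genes with none past 1.5-fold.

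Genes of mature colonocytes were mostly higher. Of 32 tested, 25 had a change above 0, 6 were at least 1.5-fold higher and none 1.5-fold lower, with a median of 0.27. *Car1*, the carbonic anhydrase of colonocytes, rose from 20390 to 34634 (0.76, 0.74 to 0.79). The basolateral bile acid transporter subunits *Slc51a* and *Slc51b* rose by 0.92 (0.62 to 1.24) and 1.07 (0.70 to 1.47), and *Tmigd1*, an adhesion protein of the upper crypt, by 0.99 (0.84 to 1.13). *Slc6a14*, an amino acid transporter, rose from 2314 to 3961 (0.78, 0.70 to 0.85), and intestinal alkaline phosphatase *Alpi* from 363 to 587 (0.69, 0.50 to 0.89). *Slc26a3*, the chloride-bicarbonate exchanger of the surface epithelium, was higher at 0.51 (0.44 to 0.57). *Car2*, *Guca2b* and *Krt20*, other markers of surface colonocytes, had changes of -0.16 (-0.20 to -0.11), -0.18 (-0.37 to 0.0049) and 0.11 (0.026 to 0.19).

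Several absorptive enzymes and transporters, some more typical of the small intestine, were at least 2-fold higher. *Sis* (sucrase-isomaltase, chromosome 3, chr3:72888557-72967863 on the minus strand of GRCm38), the disaccharidase that splits sucrose, rose from 432 to 2327, a change of 2.43 (2.28 to 2.58). *Enpep*, a brush border aminopeptidase, and *Slc13a2*, a citrate transporter, rose by 1.27 (1.06 to 1.49) and 1.24 (0.92 to 1.57). *Slc3a1*, a subunit of the cystine and basic amino acid transporter, rose from 594 to 1294 (1.12, 0.98 to 1.27). Of 20 absorptive hydrolases, transporters and sugar handling genes tested, 5 were at least 2-fold higher and 0 at least 2-fold lower, yet the median was only 0.22. *Mgam*, the disaccharidase nearest to *Sis* in function, had 0.005 (-0.028 to 0.038), *Slc2a5*, the fructose transporter, had -0.05 (-0.50 to 0.40), and *Anpep* had -0.51 (-0.90 to -0.14). This list was written after values of its members had been seen, so its count only describes them. The wider list of brush border and microvillus genes, which includes *Sis*, had a median of 0.10 over 26 genes, with 20 above 0, 4 at least 1.5-fold higher and 0 lower. Its most abundant member by count, the actin cross-linker *Actn4*, had 0.27 (0.24 to 0.30), and *Vil1*, which bundles the actin of microvilli, had -0.054 (-0.093 to -0.016).

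**Figure D3:**
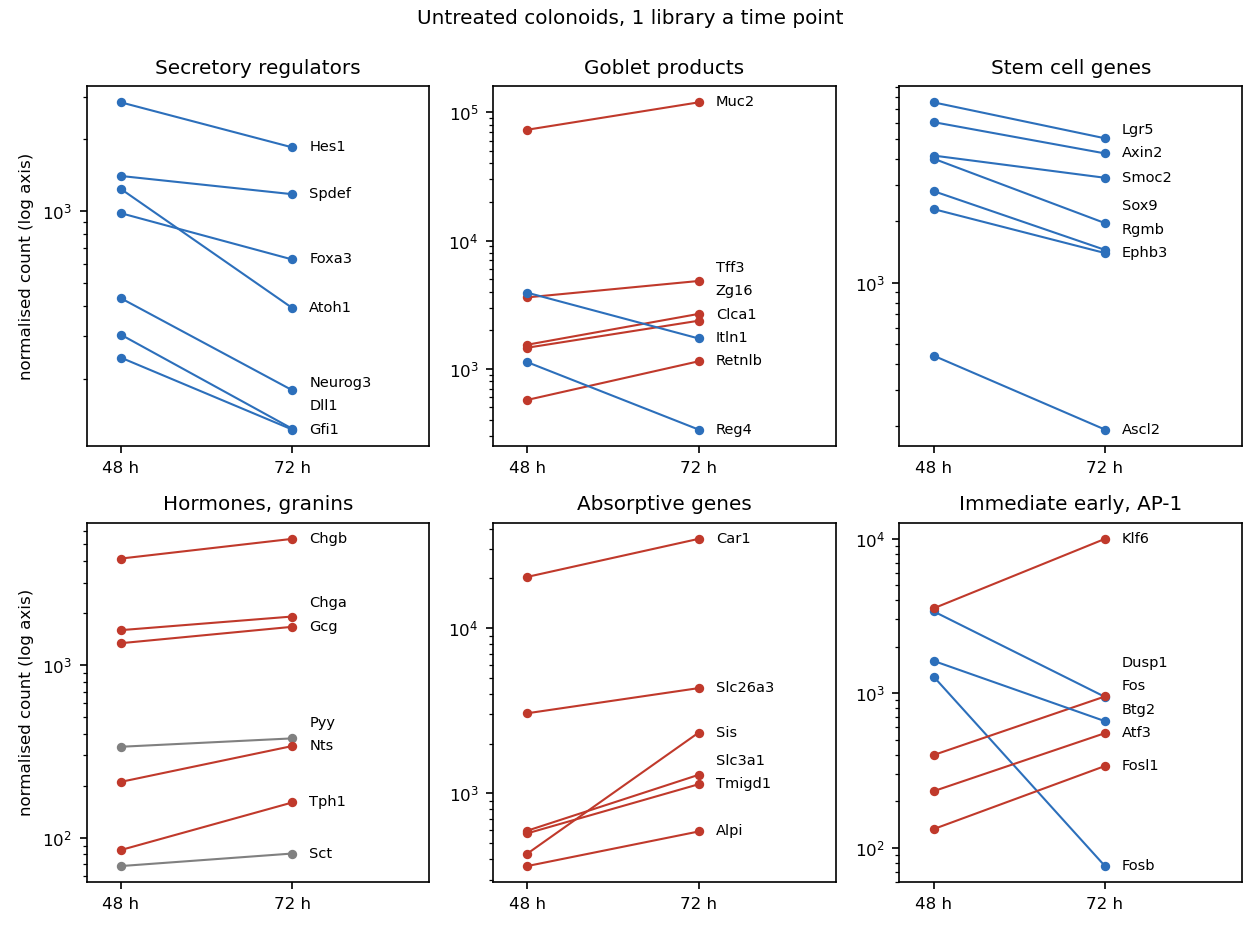
Normalised counts on a log axis at 48 h and 72 h in the 2 untreated libraries for 6 or 7 genes in each of 6 groups, with lines joining 1 gene. Red lines have a counting interval above 0, blue lines below 0 and grey lines include 0. The secretory regulators and stem cell genes shown were lower, the absorptive genes and most goblet products shown were higher, and the immediate early genes split. The genes were picked for display. Members that went the other way, among them *Klf4*, *Foxa1*, *Ephb2* and *Anpep*, are not drawn. *Hes1*, the repressor of *Atoh1*, is drawn with the secretory regulators.

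Immediate early genes, which respond to signals within minutes and encode short-lived transcription factors and phosphatases, split into a falling and a rising set. *Fosb* fell from 1278 to 76.0, a change of -4.05 (-4.42 to -3.74), the largest of any tested gene with an established name. *Fos* fell from 3380 to 946 (-1.84, -1.94 to -1.73). *Fosl1*, another partner of Jun in the AP-1 complex, rose instead from 132 to 338 (1.35, 1.06 to 1.66), and *Atf3*, a stress-induced member of the same bZIP class, rose from 232 to 551 (1.24, 1.02 to 1.48). The Jun genes stayed near their level, with *Jun* at 0.049 (-0.0028 to 0.10), *Junb* at -0.26 (-0.36 to -0.16) and *Jund* at 0.16 (0.10 to 0.22). *Dusp1*, a phosphatase that switches off MAP kinases, rose from 398 to 952 (1.26, 1.09 to 1.43). *Btg2*, an antiproliferative p53 target, and *Ier3* fell, with changes of -1.29 (-1.43 to -1.16) and -0.93 (-1.07 to -0.79). Of 25 tested members, 5 were at least 1.5-fold higher and 5 lower, while 18 were above 0 and 7 below, with a median of 0.21.

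The sequences before the start sites of *Fos*, *Fosb* and *Atf3* are shown because these bZIP genes moved in opposite directions. They are the 250 bases before the RefSeq start site in GRCm38.p6, written 5′ to 3′ on the strand of the gene, with the letters TGACG, the half-site of the cAMP response element, in capitals on either strand. The coordinates are chr12:85473640-85473889 on the plus strand for *Fos*, chr7:19310046-19310295 on the minus strand for *Fosb* and chr1:191183334-191183583 on the minus strand for *Atf3*.
Fos: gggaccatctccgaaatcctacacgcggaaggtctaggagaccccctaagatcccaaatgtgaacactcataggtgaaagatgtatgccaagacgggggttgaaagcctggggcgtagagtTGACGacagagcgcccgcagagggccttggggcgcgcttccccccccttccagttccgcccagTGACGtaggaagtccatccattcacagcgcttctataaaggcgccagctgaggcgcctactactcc
Fosb: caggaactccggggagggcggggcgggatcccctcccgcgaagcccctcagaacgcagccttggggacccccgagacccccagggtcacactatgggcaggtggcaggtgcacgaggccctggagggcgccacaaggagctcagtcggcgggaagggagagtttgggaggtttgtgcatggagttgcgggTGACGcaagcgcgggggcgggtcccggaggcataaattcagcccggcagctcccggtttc
Atf3: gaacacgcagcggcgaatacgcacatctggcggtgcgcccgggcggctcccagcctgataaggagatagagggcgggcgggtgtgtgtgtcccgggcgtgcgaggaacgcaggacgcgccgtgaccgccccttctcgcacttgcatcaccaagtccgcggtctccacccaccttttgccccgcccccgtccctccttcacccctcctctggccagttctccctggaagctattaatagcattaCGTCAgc
The half-site lay at -129 and -66 in *Fos* and at -60 in *Fosb*, counted from the start site to its first base, and at -7 in *Atf3*, where it is on the opposite strand. Both genes that fell and the one that rose thus carried it. It was found in 5836 of 32851 RefSeq promoters of this length (17.8%). Of the 22 immediate early genes that had an entry, 13 carried it in any of their promoters. This count is by gene and not by promoter, so it cannot be set against that share. The full palindrome TGACGTCA was in none of the 3 and in 508 promoters (1.55%), and TATAAA was in *Fos* alone of the 3, at -33, and in 12.4% of all. These are matches of letters and not binding data.

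*Klf6* and *Klf11*, zinc finger factors of the Kruppel family, were both more than 2-fold higher at 72 h. *Klf6* rose from 3540 to 9965 (1.49, 1.44 to 1.55) and *Klf11* from 264 to 828 (1.65, 1.45 to 1.86). Of 10 family members tested, 8 had a change above 0 and these 2 were past 2-fold. *Klf5*, which marks proliferating crypt cells, had -0.046 (-0.084 to -0.0073). The family was chosen for description after these values were seen.

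Genes induced by oxidative and amino acid stress were higher. Of 28 targets of Nrf2, the antioxidant transcription factor, 7 were at least 1.5-fold higher and none lower, with a median of 0.31. *Osgin1*, an oxidative stress response gene, rose from 230.1 to 854 (1.89, 1.68 to 2.11), and *Gclc*, the catalytic subunit that limits glutathione synthesis, rose from 3507 to 7257 (1.05, 0.99 to 1.11). The glutathione transferases *Gsta1* and *Gsta3* rose by 1.15 (1.03 to 1.27) and 1.02 (0.75 to 1.29), and as close relatives of other *Gsta* genes their reads may be shared. *Nqo1* (0.49, 0.36 to 0.62) and *Hmox1* (0.28, 0.08 to 0.49), the most used reporters of this pathway, were within 1.5-fold. Of 30 targets of the integrated stress response, 25 were above 0 and 5 were at least 1.5-fold higher, with a median of 0.24. They were led by *Atf3* and by *Ppp1r15a*, a feedback phosphatase subunit that rose from 506 to 1021 (1.01, 0.86 to 1.17). The list of unfolded protein and endoplasmic reticulum stress genes had a median of 0.025, with the chaperone *Hspa5* at 0.15 (0.12 to 0.19) and its highest members, *Herpud1* and the co-chaperone *Dnajb9*, at 0.56 (0.48 to 0.64) and 0.53 (0.41 to 0.66).

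Enzymes that handle foreign compounds and retinoids moved both ways. The list of aryl hydrocarbon receptor and drug metabolism genes had a median of 0.25 over 28 genes. Its classical receptor targets *Cyp1a1* and *Cyp1b1* fell, from 330.3 to 167 (-0.98, -1.26 to -0.71) and from 427 to 217 (-0.97, -1.22 to -0.74). *Aldh1a1*, which makes retinoic acid, rose from 1728 to 4321 (1.32, 1.24 to 1.4), and *Ces1g*, a carboxylesterase, rose from 147 to 359 (1.28, 1.01 to 1.58). The retinol dehydrogenases *Rdh1* and *Rdh16f1*, which act one step before *Aldh1a1* and whose annotated spans overlap, fell, with changes of -1.06 (-1.31 to -0.83) and -1.1 (-1.42 to -0.80). They are close relatives whose reads may be shared. *Akr1c18*, a hydroxysteroid dehydrogenase that inactivates progesterone, had the highest change of any tested gene with an established name, from 11.2 to 157 (3.69, 2.92 to 4.83), on 11 and 159 raw counts.

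Several hypoxia-responsive genes fell while the transcription factor subunit *Hif1a* rose. *Ankrd37* fell from 820.1 to 348 (-1.24, -1.42 to -1.06), *Adm*, encoding adrenomedullin, from 198 to 85.9 (-1.2, -1.59 to -0.84), and *Ddit4*, an inhibitor of mTORC1, from 1766 to 768 (-1.2, -1.32 to -1.08). *Hif1a* rose from 1485 to 2249 (0.60, 0.50 to 0.70), and *Cited2*, a competitor of HIF1A for its coactivator, rose from 1168 to 2376 (1.02, 0.92 to 1.13). The list median was -0.19 over 26 genes, and *Vegfa* had -0.44 (-0.50 to -0.38). In glycolysis, *Pfkfb3*, which makes the activator of phosphofructokinase, fell from 1282 to 728 (-0.82, -0.95 to -0.68). *Ldha* and *Gapdh* had -0.13 (-0.16 to -0.10) and 0.0027 (-0.012 to 0.018).

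Iron and zinc handling showed single large falls. *Slc11a2*, the apical iron importer DMT1, fell from 8112 to 3266 (-1.31, -1.37 to -1.25), among the 10 largest losses in share of all counts. *Cybrd1*, the reductase that prepares iron for it, fell from 118 to 44.4 (-1.38, -1.93 to -0.90), and *Ncoa4*, which delivers ferritin for breakdown, from 4134 to 2642 (-0.65, -0.72 to -0.57). *Tfrc*, the transferrin receptor, had -0.025 (-0.072 to 0.022), and the ferritin heavy chain *Fth1* had 0.21 (0.18 to 0.24). *Slc30a10*, a manganese exporter of the zinc transporter family, fell from 752 to 329.8 (-1.19, -1.38 to -1.0). The median of 17 iron genes was -0.062, with 11 below 0, and only the 3 named in this set were at least 1.5-fold lower. The set was written after the values of its members were seen.

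Sterol synthesis moved slightly but together. Of 26 genes tested, 25 were below 0, with a median of -0.21 and a single gene past 1.5-fold, *Tm7sf2*, which fell (-0.59, -0.73 to -0.46). *Hmgcs1*, an early enzyme of the pathway, had 11700 to 8733 (-0.42, -0.46 to -0.38). Interferon-induced genes had a median of -0.25 over 21 genes at low counts, which became -0.087 with the gene filter of the study's methods. Of the 3 MHC class II genes tested, *Cd74*, the invariant chain, fell from 152 to 72.1 (-1.07, -1.5 to -0.67) and *H2-Ab1*, a chain of the peptide receptor, from 87.9 to 52.3 (-0.74, -1.27 to -0.24). *H2-DMa*, which helps to load peptides, rose from 47.0 to 78.0 (0.72, 0.19 to 1.29). Among chemokines, *Ccl20* rose from 16.4 to 84.9 (2.31, 1.6 to 3.25) and *Cxcl1* from 34.8 to 113 (1.67, 1.13 to 2.29), both on few counts at 48 h.

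Of the 13 genes of the mitochondrial genome, all were higher at 72 h, with a median of 0.42. *mt-Nd5* rose from 215526 to 345546 (0.68, 0.67 to 0.69). *mt-Co1* had 914570 to 1058693 (0.21, 0.21 to 0.22). *mt-Nd6*, the one protein encoded on the opposite strand, had the highest change, from 254 to 652 (1.36, 1.15 to 1.58), and whether counting used the strand is not given in the sources used here. These genes took 15.1% of the counts at 48 h and 18.4% at 72 h. Nuclear genes of oxidative phosphorylation did not follow, with a median of -0.051 and 1 of 75 past 1.5-fold. Cytosolic ribosomal protein genes had a median of -0.15, with 71 of 76 below 0. With counts scaled to library totals, which the mitochondrial share enters, all changes shifted by -0.078. The medians of the colonocyte, stress response, drug metabolism, immediate early, EGF and absorptive hydrolase lists then fell below 0.2, between 0.13 and 0.19. With the genes of the mitochondrial genome left out of the totals, the shift was -0.022, and of these medians those of the immediate early and absorptive hydrolase lists were below 0.2, both at 0.19. The median of the hypoxia-response list then passed -0.2, as did that of the numbered zinc finger list described next, both at -0.21.

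Genes named *Zfp* followed by a number, mostly DNA-binding repressors with tandem zinc fingers, were lower as a family. Of 295 tested, 222 were below 0, 46 were at least 1.5-fold lower (15.6%) and 5 higher, against 3.13% and 2.89% of all genes, and the median was -0.19. They supplied 11 of the 88 genes at least 2-fold lower and 0 of the 78 higher. *Zfp760* fell from 192 to 59.2 (-1.68, -2.14 to -1.27), *Zfp87* from 279 to 99.7 (-1.48, -1.83 to -1.15) and *Zfp46* from 599 to 295 (-1.02, -1.23 to -0.82). The highest member, *Zfp433*, rose from 84.9 to 155 (0.86, 0.48 to 1.27). With butyrate the family median was 0.0096. The members were of low abundance, with a median normalised count of 288, and the fifth of all genes by level that holds this count, the second lowest, had a median change of -0.056. Many of these genes are close copies of each other, and reads may be shared. The family was picked after the lowest genes had been seen.

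**Figure D4:**
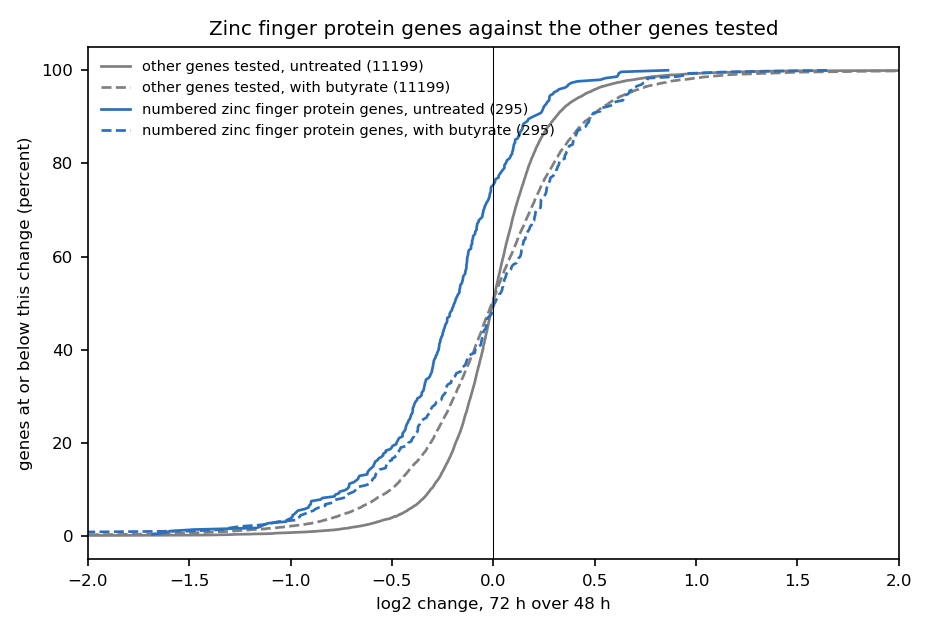
Cumulative percentage of genes against log2 change from 48 h to 72 h for 295 numbered zinc finger protein genes (blue) and the other genes tested (grey), untreated (solid) and with butyrate (dashed). The untreated zinc finger curve lies to the left of the others between about -1 and 0.5, with its median at -0.19.

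Other genes with large single changes fell outside these groups. *Ppp1r3b*, which targets a phosphatase to glycogen, fell from 935 to 246 (-1.92, -2.13 to -1.72), and *Rasd1*, a dexamethasone-induced small GTPase, from 461 to 125 (-1.87, -2.17 to -1.59). *Ccnb1ip1*, known for its role in meiotic recombination, rose from 29.7 to 139 (2.19, 1.65 to 2.86). *Cpt1b*, a carnitine palmitoyltransferase, had 22 and 104 raw counts (2.14, 1.52 to 2.93), but the predicted model *Gm44502*, which overlaps it on the same strand, had 118 and 0 raw counts. Summed over both models the raw counts were 140 and 104, a change of -0.48 (-0.86 to -0.10). *Hist1h1c*, a linker histone, rose from 619.6 to 1456 (1.23, 1.1 to 1.37), and *Sprr1a*, a marker of injured and regenerating epithelium, from 2491 to 5676 (1.19, 1.12 to 1.26). *Nid1*, a basement membrane protein, rose from 45.0 to 105 (1.2, 0.70 to 1.76). *Elf3*, an epithelial transcription factor, fell from 8740 to 4780 (-0.87, -0.92 to -0.82). The intestinal identity factor *Cdx2* (-0.19, -0.25 to -0.14) was within 1.5-fold. Of the clock genes, *Nr1d1*, *Nfil3* and *Arntl* rose by 0.85 (0.71 to 1.0), 0.71 (0.43 to 0.99) and 0.68 (0.48 to 0.88). *Per3* and *Per2* had -0.52 (-0.70 to -0.35) and -0.45 (-0.57 to -0.32).

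Some of the largest changes sat in predicted gene models and pseudogenes, for which the sharing of reads with other genes was not tested except where a sum over models is given. At 3 raw counts or fewer in one untreated library and 30 or more in the other were 22 genes, 11 in each direction, and all 22 were predicted models, clone names or pseudogenes. *Gm45837* had 0 raw counts at 48 h and 534 at 72 h, at least 172-fold higher when 0 is set to a floor of 3 counts, and 318 and 5 raw counts with butyrate. *1700047I17Rik2* on chromosome 12 had 204 and 3 raw counts, and its neighbour *Srp54b* (chr12:55155104-55189573), a subunit gene of the signal recognition particle, had 243 and 40. *Srp54a* and *Srp54c*, close copies of *Srp54b*, had 2764 and 3109 and 1689 and 1760 raw counts. Summed over the 3 copies the change was 0.014 (-0.044 to 0.072), so the fall of *Srp54b* was not a fall of the family.

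Several defining markers of other cell types were at or near 0, and the marker lists summed to more raw counts at 72 h, as given here. None of 8 endothelial markers reached the count limit, and the list summed to 78 raw counts at 48 h and 86 at 72 h. Of 12 immune markers 2 were tested, *Cd14* and *Cd68*, with a list sum of 726 and 828 raw counts. The defining *Ptprc* had 5 and 15 raw counts and *Adgre1* 0. Of 13 fibroblast and muscle markers 3 were tested, with sums of 315 and 398 raw counts, *Col3a1* at 0 and *Col1a1* at 5 and 6. The 3 tested, all above 0, were *Vim* (0.47, 0.072 to 0.88), *Pdgfrb* (0.34, -0.092 to 0.78) and *Thy1* (0.13, -0.23 to 0.50). Of 9 neuron and glia markers 3 were tested, with sums of 400 and 515 raw counts, and *Sox10* at 0. These were *Snap25* (0.57, 0.14 to 1.03), *Ret* (0.34, 0.083 to 0.60) and *Tubb3* (0.02, -0.51 to 0.55), also all above 0, and the part of such cells in the results was not tested. All 10 epithelial markers were tested, with a median of 0.10.

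The change with time in untreated colonoids was then set beside that in the colonoids kept in 2 mM butyrate over the same interval. In the same 11511 genes, butyrate-treated cultures had 189 genes at least 2-fold higher (1.64%) and 244 at least 2-fold lower (2.12%), and at 1.5-fold 765 (6.65%) and 908 (7.89%). The SD of the change was 0.48, against 0.35 without butyrate. Across genes, Pearson's r between both changes was 0.16 and Spearman's rho 0.24, a description over genes that are not independent. Of the 78 genes at least 2-fold higher without butyrate, 50 were also above 0 with it and 9 were at least 2-fold lower. Of the 88 that were at least 2-fold lower, 65 were below 0 with butyrate and 5 were at least 2-fold higher. For 49 of the 78 and 50 of the 88, the 95% counting interval of the difference between both changes left out 0. Over all genes tested, 5668 were above 0 and 5843 below with butyrate, and that interval left out 0 for 6208 (53.9%). Since the 166 genes were chosen for a large untreated change, nothing is read from their counts.

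Some regulators fell in both arms. With butyrate, 7 of the 18 secretory factors were at least 1.5-fold lower and 1 higher, with a median of -0.32, and the Notch list had a median of -0.087 with 7 genes above and 7 below 0. *Dll1*, which fell without butyrate, had 0.012 with it. *Atoh1* had 1662 and 265 raw counts with butyrate, a change of -2.39, and *Neurog3* had -1.09, *Sox9* -1.35 and *Myc* -1.77. *Hes1* had -0.58, just short of 1.5-fold. The rise of *Klf6* (1.13), *Klf11* (2.16), *Atf3* (1.41), *Dusp1* (1.11) and *Osgin1* (1.49) was seen in both arms too.

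Mature cell products moved apart. Colonocyte genes had a median of 0.27 without and -0.62 with butyrate, where 17 of 32 were at least 1.5-fold lower. Hormones and granins had 0.32 and -0.50, and goblet products 0.29 and -0.33. *Car1* had -1.25, *Clca1* -2.17, *Retnlb* -2.31, *Tph1* -1.37 and *Sis* -0.39 with butyrate, all below 0 where the untreated change was above it. *Muc2* was higher in both arms, at 0.33 with butyrate. *Lgr5* went the other way, with 4341 and 8068 raw counts and a change of 1.15. *Fosb* had 42 and 590 raw counts with butyrate at 48 h and 72 h, a change of 4.03, almost the mirror image of its fall without. *Slc11a2* had 0.0033 with butyrate, so that its fall was seen in the untreated pair alone.

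**Figure D5:**
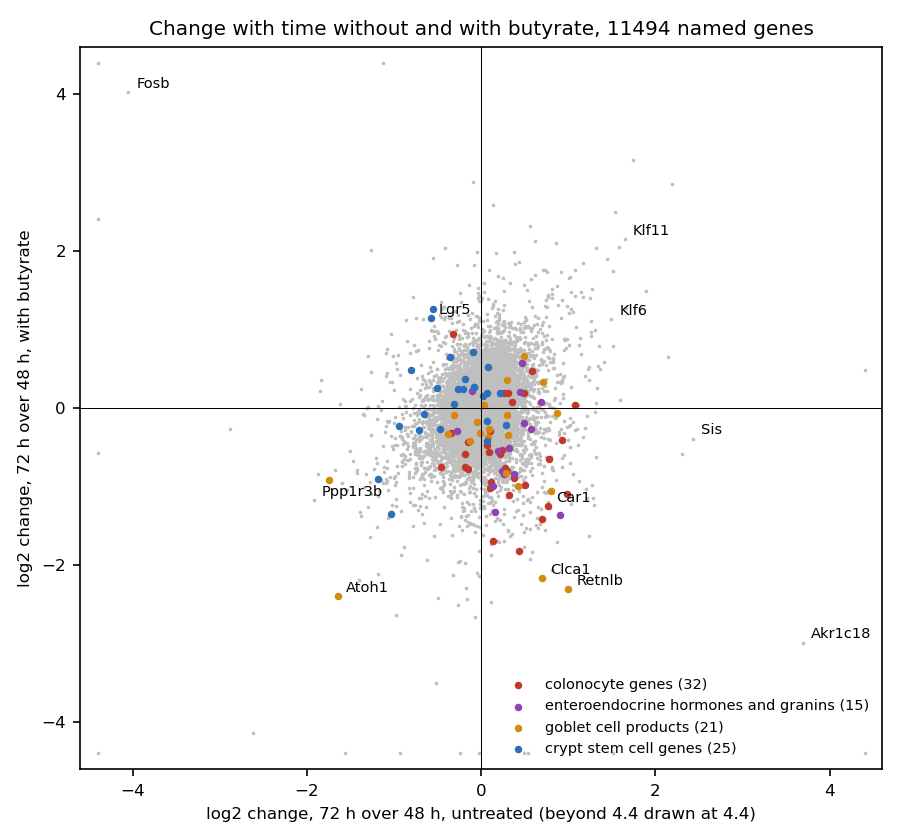
Log2 change from 48 h to 72 h with butyrate against that without, 1 point a gene, with values beyond 4.4 drawn at 4.4 and members of 4 lists in colour. Colonocyte, hormone and goblet genes lie mainly to the lower right, *Lgr5* to the upper left, and *Fosb* and *Akr1c18* in opposite corners.

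Of the 56 lists written for this tissue, 51 had at least 5 tested members. Medians of at least 0.2 were found in 9, medians of -0.2 or below in 6, and the other 36 lay between -0.19 and 0.20. Over all genes tested the median was -0.0053. Among the lists between these limits were autophagy and lysosome (0.054), apoptosis (0.021), fatty acid oxidation (0.018), tight junction (0.12) and histone deacetylase and acetyltransferase genes (0.013). *Pdk4*, a switch towards fatty acid use, was an exception within its list and rose from 50.1 to 107 (1.07, 0.59 to 1.61).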

How the data were processed

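Poly-A RNA of colonoids was sequenced in 4 libraries, 1 per condition. The authors deposited whole-number counts per gene, not normalised and not filtered. By the study's methods they come from a *kallisto* pseudoalignment pipeline and *tximport*, and the submitters' processing notes name kallisto 0.44.0 and GRCm38.p6, so the counts are estimates. Reads of near-identical copies, overlapping genes and antisense genes may be shared. In the table, 26 of 36144 names had become dates, 17 of them among the genes tested, and their genes are not named.

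DESeq2 1.42.0 size factors were computed over the 4 libraries in R 4.3.3, and edgeR 4.0.16 gave TMM factors. Changes, intervals and lists were computed in Python 3.11.15 (scipy 1.17.1, pandas 2.3.3 and numpy 2.4.6, plots by matplotlib 3.10.9), with a pseudocount of 1 and a mean normalised count of at least 50 in the untreated pair. No count model was fitted, since there were no replicates. The interval of a difference between both arms is a normal approximation on the log counts. Changes and intervals were run on simulated counts that held counting error only, so variation between libraries was not tested. Gene positions came from GENCODE M21, matched for 35922 names.

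The comparison and the gene lists were chosen with earlier results of these data known. Genes named were drawn from the groups that follow, and not every gene of these groups is named. They were the 15 highest and 15 lowest changes without predicted models and the 10 largest gains and losses in CPM. Of each list they were the 4 most changed and the most abundant member with any past 2-fold. To these came genes the study names, and genes with at most 3 counts in one untreated library and at least 30 in the other. Other members are named for their function. The iron, retinoid, Kruppel-like, Wnt ligand, absorptive and zinc finger lists, and the counts without predicted models, were chosen after the values were seen. A list median was called from 0.2. Alternatives were other scalings, a pseudocount of 5 and other filters. 1 library at a time point means that culture, extraction and sequencing cannot be told apart from time. The 36144 names included a few genes that are not reported here.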

Additional observations from a re-analysis of the deposited data

Results flagged for a closer look

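Some lists and genes moved in opposite directions between 48 h and 72 h without and with butyrate. With 1 library per condition this opposition was not tested, and each pair below gives the untreated value first. Colonocyte genes had a median log2 change of 0.27 without and -0.62 with butyrate, and the absorptive hydrolases and transporters 0.22 and -0.77. Hormones and granins had 0.32 and -0.50, goblet cell products 0.29 and -0.33, and aryl hydrocarbon receptor and drug metabolism genes 0.25 and -0.56. Wnt target and feedback genes had the reverse pattern, with -0.27 and 0.23.

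Among single genes at least 2-fold changed in both arms with intervals that left out 0, *Fosb* had -4.05 and 4.03, and *Akr1c18* had 3.69 and -2.99. *Ces1g* had 1.28 and -1.14, and *Nid1* had 1.2 and -1.03. In the untreated pair *Akr1c18* and *Nid1* rested on few counts at 48 h, 11 and 44. With butyrate *Akr1c18* had 3 counts at 72 h, and its interval ran from -5.68 to -1.67.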

How the results depend on the processing

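No paired analysis was possible because there was 1 library per condition, which also left no library that could be omitted. With TMM, size factors of the untreated pair alone, or a pseudocount of 5, the numbers of genes past 1.5-fold and 2-fold stayed within 1.5 times those reported. They depended on the count filter. Under the study's own filter, which asks for over 10 counts in 2 or more libraries, 372 genes were at least 2-fold higher and 255 lower, and 953 and 723 at 1.5-fold. With a mean of at least 200 they were 32 and 28, and 169 and 163. Scaling to total counts moved the median change to -0.0836. It turned *Ndrg1* to -0.0222 and *Ncl* to -0.0115. Without predicted models, an alternative chosen after seeing the data, 63 genes were at least 2-fold higher and 70 lower. Of 485 recomputed list medians, 13 moved by more than the median counting interval of their members, and 0 of those called changed sign. Under total counts the medians of colonocyte genes (0.19), integrated stress response targets (0.16), aryl hydrocarbon receptor and drug metabolism genes (0.17), immediate early genes (0.13), EGF family genes (0.17) and absorptive hydrolases and transporters (0.14) fell below the 0.2 used to call a list. Those of hypoxia-response (-0.27), ribosomal protein (-0.23), numbered zinc finger (-0.27) and Paneth genes (-0.21) passed it. The study's filter took interferon-induced genes to -0.087 and histone genes to 0.28, and a mean of at least 200 took goblet cell products to 0.19 and Paneth genes to -0.34. Of 1510 recomputed changes of named genes, 126 left their counting interval. *Ndrg1* and *Ncl* were the 2 that changed sign although their interval had left out 0, and other named genes close to 0, whose interval held it, changed sign too. Genes with few counts limit the comparison: the median interval reached 0.148 on each side of a log2 change.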

Other observations

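Exon length was weakly related to the change. Across the genes tested, the fifth with the shortest exon length had a median log2 change of -0.039 and the fifth with the longest 0.047, with Spearman's rho of 0.13 over 11467 genes. With butyrate the same medians were -0.17 and 0.19, with rho of 0.34. These are descriptions across genes, which are not independent.

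Ribosome biogenesis genes had a median change of -0.018 over 34 genes, and 0 of them passed 1.5-fold. Of 76 cytosolic ribosomal protein genes, 71 were below 0 and 5 above it, and 0 passed 1.5-fold. *Rpl5*, *Rpl10* and *Rps12* stood furthest above it, at 0.49, 0.46 and 0.49, and were singled out after their values were seen. *Rps13-ps2*, a pseudogene of a ribosomal protein gene, had 101 counts at 48 h and 1 at 72 h, and *Rps13* itself had a change of -0.15.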
